A study of Mus musculus with 50 samples.

Results

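Macrophages live between the fibres of resting skeletal muscle, where they clear debris and take up hemoglobin and other spent material. They carry a common set of genes for the lineage (the receptor of colony-stimulating factor 1, the transcription factor PU.1, lysozyme) and, in resident cells near vessels, a set of scavenger receptors. After damage, monocytes enter from the blood and turn into macrophages, and a state that handles lipid is marked by the receptor TREM2. A set of 10 genes in common use as markers of these cells was followed in the gastrocnemius, a fast calf muscle, of aging mice: Adgre1, Cd68, Cd14, Mrc1, Cd163, Lyve1, Csf1r, Lyz2, Trem2 and Spi1. They were chosen by symbol, and all 10 were found among the 23880 genes of the deposited table.

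The animals were 50 male wild type C57BL/6JRj mice, each caged alone and each giving 1 muscle library, with 8 mice at 8, 18, 22 and 24 months and 9 mice at 26 and 28 months. All received the AIN-93M diet. The methods give at least 2 months of this diet for 8 and 18 months-old mice and feeding from 18 to 19 months of age onward for the 22 to 28 months-old mice, so that 28 and 8 months differ in diet history as well as age. Mice of 28 and 22 months began the diet at the same age and differ in how long they ate it. Animals with visible illness or tumors were left out by the authors. Total counts ran from 13607229 to 21267375 per mouse, all 10 markers passed the filter on low genes (1 CPM or more in 8 mice or more, where CPM is a library's reads scaled to a fixed total), and genes of muscle fibres added up to between 161400 and 251800 TPM (the same after division by transcript length). One library, replicate 2 at 28 months, stood apart: its marker levels are the highest of all 50 mice for 6 of the 10 genes, it has the lowest muscle fibre sum, and the main results are given with and without it. In whole muscle, more cells of a type and more RNA per cell cannot be told apart.

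In 28 months-old against 8 months-old muscle, 7 of the 10 markers were higher at FDR below 0.01 (edgeR's quasi-likelihood test), and all 10 fold changes were positive, with a median log2 fold change of 0.77 against 0.01 over all genes. In the same comparison 39.6% of 12586 genes passed, 21% as higher and 18.7% as lower. Without the library that stood apart 3 of 10 passed, the scavenger receptors Cd163, Mrc1 and Lyve1, with a median of 0.61; the share of all genes was then 34.6%, and 18.2% for higher genes. Between 26 and 8 months 4 markers were higher, Cd14, Mrc1, Cd163 and Lyve1, where 18.4% of all genes passed and 9.84% were higher. The comparison of 28 with 22 months, which share the age at the start of the diet, gave Cd163 and Lyve1, with and without that library, beside 27.7% of all genes (16.2% higher) with it and 20.2% (11.7% higher) without it. Of all calls in that comparison 58.3% were higher, and 43.4% with upper-quartile in place of TMM scaling, under which the same 2 markers passed.

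Sequences of 4 genes are shown in pairs, and the first pair bears on how Lyz2 was measured. The first pair is Lyz2 (chr10:117277331-117282321, minus strand, GRCm38) and its neighbour Lyz1 (chr10:117287797-117292868, minus strand), which encode the macrophage and the Paneth cell form of lysozyme and whose coding sequences of 444 bases are identical at 422 positions, 95% of them. Bases 1 to 120 of each coding sequence in GENCODE vM21 are shown to let the likeness of the genes be seen. Capitals mark the 11 bases that differ.
Lyz2: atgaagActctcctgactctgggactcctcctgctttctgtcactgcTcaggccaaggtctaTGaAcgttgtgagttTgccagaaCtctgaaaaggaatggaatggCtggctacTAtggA
Lyz1: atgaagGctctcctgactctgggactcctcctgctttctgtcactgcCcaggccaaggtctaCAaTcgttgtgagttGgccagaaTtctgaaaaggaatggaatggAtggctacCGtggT
Of the 1286 different words of 31 bases in the Lyz2 transcript, 32.8% also occur in a coding transcript of another gene, and that gene is Lyz1 alone. The other markers share 0% to 0.646% of theirs. The authors divided a read that fits several transcripts evenly among them, so a read with no base that differs between Lyz2 and Lyz1 would be shared by both. How many reads were of this kind was not tested. Lyz1 held between 3.11% and 8.39% of the summed counts of both genes in any mouse.

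The other pair is the promoter windows of Mrc1 (chr2:14229164-14229463, plus strand) and Cd163 (chr6:124304401-124304700, plus strand), from 250 bases before to 50 after the start of the gene in RefSeq's table for GRCm38.p6. They are shown because both receptors were higher at 28 months with and without replicate 2, and because Spi1, another marker, encodes PU.1, which binds sites built on GAGGAA. Capitals mark GAGGAA or its reverse complement TTCCTC.
Mrc1: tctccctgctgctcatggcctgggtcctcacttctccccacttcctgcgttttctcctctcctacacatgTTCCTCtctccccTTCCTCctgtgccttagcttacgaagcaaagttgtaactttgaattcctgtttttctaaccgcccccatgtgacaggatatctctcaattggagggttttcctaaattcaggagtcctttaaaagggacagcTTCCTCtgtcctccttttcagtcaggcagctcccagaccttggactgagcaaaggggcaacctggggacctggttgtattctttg
Cd163: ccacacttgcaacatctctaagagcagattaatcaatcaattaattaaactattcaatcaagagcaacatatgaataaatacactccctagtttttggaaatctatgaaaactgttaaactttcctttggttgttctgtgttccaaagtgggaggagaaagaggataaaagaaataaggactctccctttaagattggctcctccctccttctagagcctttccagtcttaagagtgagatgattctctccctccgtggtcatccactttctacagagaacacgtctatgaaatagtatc
The Mrc1 window holds 3 matches and the Cd163 window 0. Windows were found for 5 of the 10 markers, 3 of which hold a match, and 28.3% of all 32851 windows of this length hold at least 1.

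Among the receptors, Cd163, which takes up complexes of hemoglobin and haptoglobin, moved most (chr6:124304656-124330527, plus strand). At 8 months its level ran from 13.9 to 33.5 CPM with a median of 22.0, and medians at 18, 22 and 24 months were 28.2, 24.0 and 28.8. At 26 months the lowest mouse had 33.54 CPM, the median was 46.3 and the highest 62.8. All 9 mice of that age were above the highest of 8 months, by a small margin for the lowest, a separation that 1.49% of all genes showed in that direction. At 28 months the levels ran from 24.8 to 91.99 CPM with a median of 41.0, and 7 of 9 mice were above the 8 months-old range. Replicates 1, 2, 5 and 9 lay between 68.2 and 91.99, and the other five at or below 41.0. The log2 fold change between 28 and 8 months was 1.29 ± 0.22 (SE; FDR = 9.75e-06), or 2.44-fold, and 1.16 ± 0.22 (FDR = 4.95e-05) without replicate 2. At 26 months it was 1.02 ± 0.22 (FDR = 0.000667), and between 28 and 22 months 1.08 ± 0.22 (FDR = 0.000206).

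Mrc1 encodes the mannose receptor CD206, which binds sugars on microbes and on cast-off glycoproteins (chr2:14229392-14332057, plus strand). It ran from 14.7 to 31.9 CPM with a median of 22.9 at 8 months, from 26.1 to 53.8 with a median of 34.6 at 26 months, and from 21.1 to 72.8 with a median of 35.6 at 28 months. The old groups overlapped the young one, with 6 of 9 mice of 26 months and 5 of 9 of 28 months above it. Between 28 and 8 months the log2 fold change was 0.84 ± 0.18 (FDR = 0.000161), and 0.67 ± 0.17 (FDR = 0.00108) without replicate 2. At 26 months it was 0.71 ± 0.18 (FDR = 0.00253).

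Lyve1, a hyaluronan receptor found on macrophages near vessels and also on lymphatic endothelium, had the smallest spread of the 10 markers between young mice, relative to its mean (chr7:110850607-110863239, minus strand). Its levels were 11.3 to 16.4 CPM at 8 months, with a median of 13.8 and a coefficient of variation of 12.1%. They were 15.7 to 33.0 with a median of 21.1 at 26 months and 13.5 to 45.6 with a median of 21.6 at 28 months. At 26 months 8 of 9 mice lay above the young range, and at 28 months 7 of 9. The rise between 28 and 8 months was 0.83 ± 0.20 on the log2 scale (FDR = 0.000463), and 0.67 ± 0.19 (FDR = 0.00304) without replicate 2, and at 26 months it was 0.68 ± 0.20 (FDR = 0.00715). Between 22 and 8 months Lyve1 did not differ beyond its error (-0.04 ± 0.20, FDR = 0.97) and was higher at 28 than at 22 months by 0.88 ± 0.20 (FDR = 0.000526). Lymphatic endothelium is the other source of Lyve1. Of 8 of its genes 0 passed at FDR 0.01 between 28 and 8 months in edgeR, in DESeq2 or in limma on TPM. In edgeR 1 had an unadjusted p below 0.05, and 39.6% of all genes passed. The summed level of these 8 genes had medians of 41.7 TPM at 8 months and 35.5 TPM at 28 months, and 34.9 in replicate 2. Which cells carried the change in Lyve1 was not tested.

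Cd14, the co-receptor that hands bacterial lipopolysaccharide to TLR4, lies at chr18:36725067-36726798 on the minus strand. It had 1.69 to 3.74 CPM with a median of 2.28 at 8 months, 3.07 to 6.30 with a median of 4.36 at 26 months and 2.13 to 11.3 with a median of 3.01 at 28 months. At 26 months 7 of 9 mice were above the young range. At 28 months 2 mice stood far above the rest, replicate 1 with 11.31 CPM and replicate 2 with 11.27, and the next had 4. The log2 fold change against 8 months was 0.91 ± 0.26 at 26 months (FDR = 0.0072) and 0.998 ± 0.26 at 28 months (FDR = 0.0015). The call at 28 months rested on these 2 animals: it was 0.73 ± 0.24 (FDR = 0.013) without replicate 2, and it also missed the threshold without replicate 1.

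Trem2, a lipid receptor, was the scarcest of the 10 genes, with 4 to 33 counts per mouse (chr17:48346401-48354147, plus strand). Its levels ran from 0.19 to 1.38 CPM with a median of 0.710 at 8 months and from 0.589 to 1.74 with a median of 1.002 at 28 months. The groups overlapped, and 4 of 9 old mice were above the young range. A log2 fold change of 0.58 ± 0.32 (FDR = 0.12) did not pass, and its 95% interval from -0.04 to 1.21 includes a doubling as well as no change. Replicate 2 ranked 37 of 50 for this gene, with 11 counts (0.590 CPM, against a lowest of 0.589 among the others of its age), although it was first for Mrc1, Cd163, Lyve1, Csf1r, Lyz2 and Spi1.

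Csf1r, the receptor for the growth factors CSF1 and IL-34 on which macrophages depend, lies at chr18:61100598-61132149 on the plus strand. It ran from 17.5 to 33.9 CPM with a median of 26.9 at 8 months and from 26.8 to 63.6 with a median of 34.8 at 28 months, and 5 of 9 old mice were above the young range. The log2 fold change was 0.57 ± 0.16 (FDR = 0.00291), and 0.45 ± 0.15 (FDR = 0.0154) without replicate 2. At 26 months it was 0.33 ± 0.16 (FDR = 0.108).

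Spi1 encodes PU.1, the transcription factor that sets up the lineage (chr2:91082390-91115756, plus strand), and no other marker turned so much on 1 animal. Levels were 0.845 to 2.39 CPM with a median of 1.63 at 8 months. At 28 months the 8 mice other than replicate 2 had 1.44 to 2.58 CPM with a median of 2.03, and replicate 2 had 12.08 CPM from 225 counts, 5.95 times that median. Its log2 fold change of 1.02 ± 0.32 (FDR = 0.00718) became 0.37 ± 0.25 (FDR = 0.215) without it, and the comparison with 26 months went from 0.63 ± 0.31 (FDR = 0.388) to -0.02 ± 0.24 (FDR = 0.985).

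Lyz2, lysozyme of macrophages, monocytes and neutrophils, had by far the highest level of the 10 genes per length. It ran from 58.5 to 142 CPM with a median of 90.8 at 8 months, from 112 to 225 with a median of 161 at 26 months and from 116 to 300 with a median of 159 at 28 months. In both old groups 6 of 9 mice were above the young range. The log2 fold change at 28 months was 0.70 ± 0.21 (FDR = 0.00391), and 0.55 ± 0.20 (FDR = 0.0201) without replicate 2; at 26 months it was 0.65 ± 0.21 (FDR = 0.0131). The sum of Lyz2 and Lyz1, which does not depend on how shared reads were divided, was 108 ± 36.0 CPM at 8 months (SD, n = 8) and 174 ± 56.4 at 28 months (SD, n = 9).

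Beside Trem2, Adgre1 and Cd68 did not pass. Adgre1, which encodes the F4/80 antigen (chr17:57358691-57483527, plus strand), had 5.23 to 8.76 CPM with a median of 6.09 at 8 months and 3.97 to 11.4 with a median of 6.39 at 28 months. These ranges overlap almost completely, and the log2 fold change was 0.15 ± 0.21 (FDR = 0.567; 95% interval -0.26 to 0.56). At 26 months it ran from 4.66 to 17.8 with a median of 10.5, and the change was 0.59 ± 0.21 (FDR = 0.0257). Cd68, a glycoprotein of the lysosome and endosome (chr11:69664213-69666153, minus strand), had 2.09 to 6.73 CPM with a median of 4.003 at 8 months and 4.19 to 7.57 with a median of 5.33 at 28 months. All 9 old mice were above the young median but 1 above the young range, and the change was 0.44 ± 0.20 (FDR = 0.0612).

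**Figure D1:**
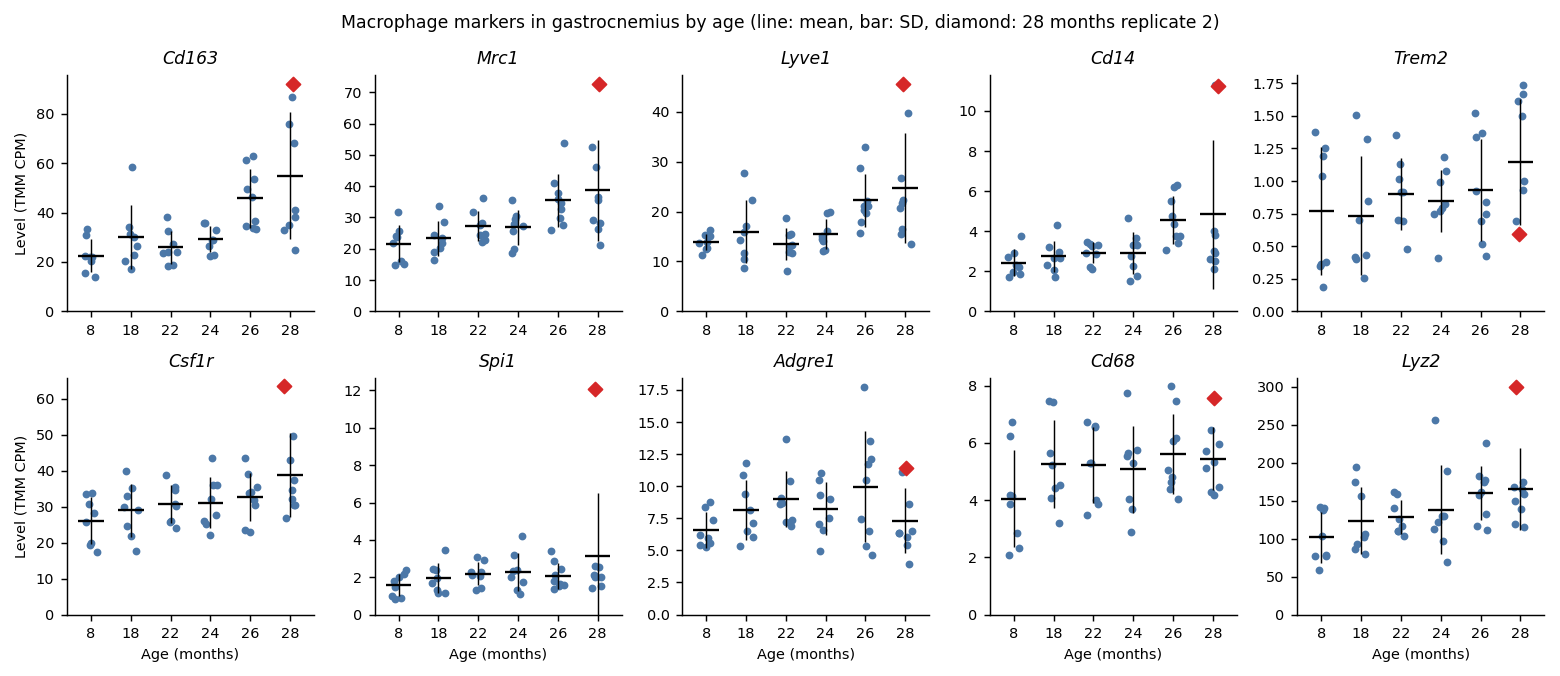
Level of each of the 10 markers (y axis, TMM-scaled CPM) in each of the 50 mice by age (x axis, months), with a line at the mean, a bar for the SD (cut at 0) and a diamond for replicate 2 at 28 months. The Cd163 levels of all 9 mice of 26 months sit above the highest of 8 months, 33.5 CPM, and the Spi1 diamond at 12.08 CPM sits far above the other mice; in the Cd14 panel the diamond hides replicate 1 at 11.31 CPM.

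**Figure D2:**
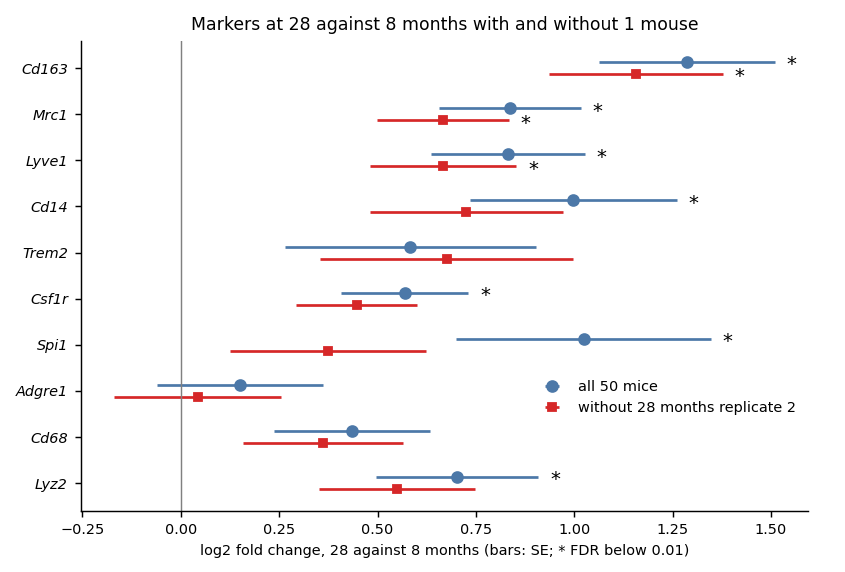
log2 fold change of each marker between 28 and 8 months (x axis) with its SE, for all 50 mice (blue circles) and without replicate 2 of 28 months (red squares), with stars at FDR below 0.01. Cd163, Mrc1 and Lyve1 carry stars in both, and Spi1 moves from 1.02 to 0.37.

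Before 26 months little passed. Between 24 and 8 months 0 of 10 markers passed in edgeR, DESeq2 or limma, with 1 at an unadjusted p below 0.05 (Lyz2), where 0.612% of all genes passed. The same count of 0 held in all 3 tools for 22 against 8 months, with 1 marker at an unadjusted p below 0.05 (Adgre1) and 0.0397% of all genes, and for 18 against 8 months, with 0 at an unadjusted p below 0.05 and 0.0715% of all genes. The medians of the 10 log2 fold changes were 0.24, 0.30 and 0.32 at 18, 22 and 24 months. They were 0.62 at 26 months and 0.77 at 28 months. Without replicate 2 of 28 months they were 0.62 at 26 months and 0.61 at 28 months, with no further rise. All were taken against the same 8 mice of 8 months. Neighbouring ages did not separate: 0 markers passed for 26 against 24 months (4 at an unadjusted p below 0.05: Cd14, Mrc1, Cd163 and Lyve1) and 0 for 28 against 26 months (2: Adgre1 lower and Spi1 higher), in edgeR, DESeq2 and limma, and 0% of all genes passed in edgeR in either, with 14 genes in DESeq2 for 26 against 24 months and 1 in limma for 28 against 26 months. In the test across the 6 ages, which 35.4% of all genes passed, 4 markers passed, Cd163 (FDR = 7.76e-06), Lyve1 (FDR = 0.000215), Mrc1 (FDR = 0.000306) and Cd14 (FDR = 0.00219), and these 4 also passed without replicate 2.

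The markers kept much of their order of abundance. On the TPM scale, which divides by transcript length, Lyz2 was first at every age, with medians of 118 TPM at 8 months and 210 at 28 months, and its range did not overlap that of the next gene. Csf1r (11.7 TPM), Lyve1 (10.9), Cd163 (9.21) and Mrc1 (8.48) followed at 8 months with overlapping ranges, then Cd68 (6.17), Adgre1 (3.41), Cd14 (2.57), Spi1 (2.25) and Trem2 (0.812). At 28 months Lyve1 (18.4 TPM) and Cd163 (18.2) came before Csf1r (14.5) and Mrc1 (13.9), and Trem2 (1.13) was again last. Lyve1 was above Cd163 in 2 of 9 mice of that age although its median was higher, so that these neighbours did not differ beyond their spread.

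Set against Adgre1 within each mouse, all 9 other markers had a higher median ratio at 28 than at 8 months. Adgre1 had the smallest log2 fold change of all markers in this comparison (0.15 ± 0.21). That all other markers rose against it was thus largely set by the choice of Adgre1, and is no separate result. The ratio of Cd163 to Adgre1 in CPM ran from 2.24 to 5.15 with a median of 3.43 at 8 months and from 3.92 to 13.4 with a median of 6.84 at 28 months, with 7 of 9 mice above the young range. For Mrc1 the median went from 3.03 to 5.33, with 6 of 9 mice above the young range, and for Lyve1 from 2.44 to 3.02, with 5 of 9. At 26 months median ratios were below those of 8 months for Lyve1 (2.13), Csf1r (2.94), Lyz2 (15.1), Cd68 (0.578), Trem2 (0.0755) and Spi1 (0.2065). They were above those of 8 months for Cd163 (4.075), Mrc1 (3.37) and Cd14 (0.509). For Csf1r, Lyz2, Cd14 and Spi1, 3, 4, 5 and 2 of 9 mice of 28 months were above the young range. Between 8 and 28 months the median ratio went from 3.85 to 5.59 for Csf1r and from 15.4 to 21.4 for Lyz2. It went from 0.392 to 0.476 for Cd14 and from 0.218 to 0.348 for Spi1. It went from 0.597 to 0.688 for Cd68, with 3 of 9 above, and Trem2 was also higher, at 0.105 and 0.157, with 2 of 9 above. These ratios are a description with no test. In replicate 2 the ratio of Cd163 was 8.09, inside the range of the other old mice, while that of Spi1 was 1.06, where the young mice reached 0.443.

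Mice of 1 age differed from each other in the markers together. After the mean of each age was subtracted from log2(CPM + 1), 43 of 45 pairs of markers had a positive Pearson r over the 50 mice, with a median of 0.57, and 39 pairs passed a permutation test within ages at an adjusted p below 0.05 (100000 permutations, two-sided, Benjamini-Hochberg over the 45 pairs; 42 pairs by Spearman's rho). Without replicate 2, 39 pairs passed and the median r was 0.51. Each pair of values comes from the same library, so that its depth and scaling are shared.

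The closest pair was Mrc1 and Csf1r, with r = 0.877 and rho = 0.863 (permutation p = 1e-05 each, the smallest that can be given; adjusted p = 2.65e-05 and 3e-05), r = 0.855 without the 2 mice farthest from the median of Mrc1 and 0.858 without replicate 2. Cd163 went with Lyve1 (r = 0.798, rho = 0.765; permutation p = 1e-05 each, adjusted p = 2.65e-05 and 3e-05; 0.762 without the 2 farthest mice) and with Mrc1 (r = 0.775, rho = 0.762; permutation p = 1e-05 each, adjusted p = 2.65e-05 and 3e-05; 0.720 without the 2 farthest mice). Lyz2, Spi1 and Cd68 also went together: r was 0.790 for Cd68 and Lyz2 (rho = 0.812), 0.782 for Lyz2 and Spi1 (rho = 0.797) and 0.705 for Cd68 and Spi1 (rho = 0.781), each with a permutation p of 1e-05 and adjusted p of 2.65e-05 for r and 3e-05 for rho, and 0.774, 0.792 and 0.684 without the 2 farthest mice. Csf1r went with these 3 genes as well, with r of 0.727 for Cd68 (rho = 0.706), 0.728 for Lyz2 (rho = 0.741) and 0.723 for Spi1 (rho = 0.698), each with a permutation p of 1e-05 and adjusted p of 2.65e-05 for r and 3e-05 for rho, and 0.692, 0.686 and 0.699 without the 2 farthest mice. For Cd68 and Cd163 r was 0.316 (rho = 0.307; permutation p = 0.0231 and 0.0333, adjusted p = 0.0273 and 0.0366; 0.315 without the 2 farthest mice).

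Trem2 was the marker least tied to the rest, with a median r of 0.30 with the other nine and 3 pairs past the threshold. Without replicate 2 its median r was 0.38 with 5 pairs past, close to Cd163 with 0.39 and 6 pairs. Its r with Cd163 was -0.136 (rho = -0.0762; permutation p = 0.404 and 0.634; adjusted p = 0.433 and 0.648; -0.112 without the 2 farthest mice). With Spi1 its r was 0.298 (rho = 0.5; permutation p = 0.0445 and 0.00043; adjusted p = 0.05 and 0.000667; 0.283 without the 2 farthest mice), and leaving out replicate 2, where Spi1 is highest and Trem2 low, gave r = 0.606 and rho = 0.626 (adjusted permutation p = 6.75e-05 for r). At 4 to 33 counts per mouse, counting error takes a larger share of the spread of Trem2 than of the other markers.

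**Figure D3:**
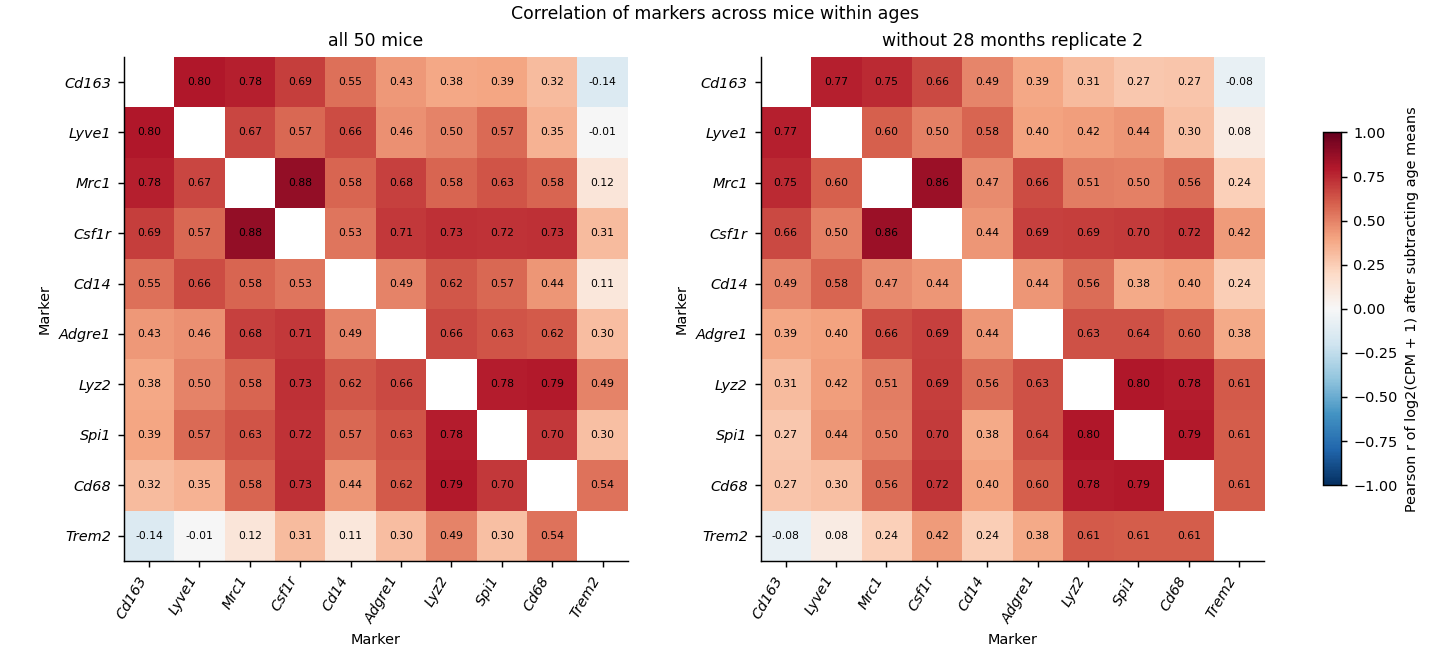
Pearson r between each pair of markers (both axes) over mice after the mean of each age was subtracted from log2(CPM + 1), for all 50 mice (left) and without replicate 2 of 28 months (right), with the scale from -1 to 1. Cd163, Lyve1, Mrc1 and Csf1r are at the upper left, with r from 0.571 to 0.877 on the left, and the lowest row, Trem2, is the palest.

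Over all other genes tested, the ones most like the markers within ages (Pearson r, 50 mice) were themselves mostly genes of white blood cells. The nearest gene was Ctss, cathepsin S, for Lyz2 (r = 0.919), followed by Tyrobp (0.879) and C1qb (0.849). F13a1, coagulation factor XIII A, was nearest to Mrc1 (0.876) and to Csf1r (0.871), Mpeg1 to Cd68 (0.843), Cfp, properdin, to Adgre1 (0.830) and Ccl6 to Lyve1 (0.834). Cd163 was nearest to Eps8 (0.790), Gda (0.779) and Cp, ceruloplasmin (0.777), and Trem2 to Gltp (0.756) and Prcp (0.707). For Cd14 the nearest was Ifitm2 (0.793) and for Spi1 Alox5ap (0.855), which fell to 0.771 without replicate 2.

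Another list held genes of macrophages and myeloid cells in general, of which 19 were tested. In edgeR 12 of them were higher at 28 than at 8 months and 0 lower, where 39.6% of all genes passed (21% higher). Without replicate 2, 6 of the 19 were higher, beside 18.2% of all genes. Which cells carried these changes was not tested. The largest changes were those of Csf3r, the receptor of granulocyte colony-stimulating factor (1.48 ± 0.35 on the log2 scale, FDR = 0.000421), and Cybb, the catalytic subunit of the phagocyte oxidase (1.43 ± 0.28, FDR = 5.68e-05). Both also passed without replicate 2, with 1.14 (FDR = 0.00412) and 0.98 (FDR = 0.000618). Between 28 and 22 months 0 of the 19 passed in edgeR, DESeq2 or limma, with 7 at an unadjusted p below 0.05. In that comparison 27.7% of all genes passed in edgeR, 16.2% as higher.

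Of other genes of resident, scavenging macrophages, 6 of 17 were higher and 2 lower, counts that were the same without replicate 2. In this comparison 39.6% of all genes passed, 21% as higher and 18.7% as lower, so that the share of the list that passed was near that of all genes. Ccl8, a chemokine, rose by 3.10 ± 0.39 on the log2 scale (FDR = 4.43e-08), from a mean of 1.31 CPM to 11.1, and Vsig4, a complement receptor of tissue macrophages, rose by 2.40 ± 0.36 (FDR = 1.02e-06). Vsig4 had at most 0.858 CPM at 8 months, so it passed the filter on low genes only through older mice. The 2 lower genes, named after their values were seen, were Cbr2, a carbonyl reductase (-1.35 ± 0.20, FDR = 6.07e-07), and Retnla (-0.71 ± 0.21, FDR = 0.00451). The long-used resident markers Folr2 (-0.13 ± 0.19, FDR = 0.582) and Timd4 (0.32 ± 0.30, FDR = 0.384), also named after their values were seen, did not pass.

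In the list of the lipid-handling state marked by Trem2, 5 of 17 tested genes were higher and 2 lower, with and without replicate 2, a share near the 39.6% of all genes that passed. Ctsl, cathepsin L, rose by 1.302 ± 0.23 (FDR = 9.21e-06) and Lgals3, galectin-3, by 1.29 ± 0.21 (FDR = 3.28e-06). Some genes of this list are also made by muscle fibres and other cells: it summed to between 1827 and 5363 TPM, against 131 to 691 for the 10 markers.

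Ligands, signalling partners and cofactors of the markers gave 6 higher of 15 tested and 0 lower, and 5 higher and 1 lower without replicate 2, again near the 39.6% of all genes. Runx1, a transcription factor that cooperates with PU.1 and is also made by muscle, rose by 2.33 ± 0.27 (FDR = 1.74e-08), and Csf2rb, the shared receptor chain for GM-CSF, by 1.82 ± 0.28 (FDR = 1.56e-06). The ligands of CSF1R did not pass and had negative values, Csf1 at -0.23 ± 0.12 (FDR = 0.0973) and Il34 at -0.33 ± 0.14 (FDR = 0.0424). Tlr4, the partner of CD14, rose by 1.34 ± 0.21 (FDR = 2.81e-06). These 3 genes were named for their place beside the markers after their values were seen.

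Markers of other cell types moved too, in a comparison of 28 with 8 months that 39.6% of all genes passed. Their part in the results for the 10 markers was not tested. Monocyte genes gave 5 higher and 1 lower of 10 tested, and 3 higher and 2 lower without replicate 2. Their summed level had a median of 79.9 TPM at 8 months and 55.5 at 28 months, with 366 in that library. This sum is carried by a few abundant genes that other cells also make. Fn1, fibronectin, had a mean of 122 CPM at 8 months and 70.0 at 28 months (FDR = 0.000345). Means of Hp were 20.1 and 12.4 (FDR = 0.171), with 49.8 CPM in replicate 2 and at most 14.3 in the other old mice. Without that library the log2 fold change of Hp was -1.38 (FDR = 0.00334). The median log2 fold change over the 10 tested genes was 0.85, and 0.57 without that library. The monocyte markers Ly6c2 (0.51 ± 0.17, FDR = 0.0121) and Ccr2 (0.44 ± 0.26, FDR = 0.15) did not pass. In that library Ly6c2 had 4.83 CPM and Ccr2 7.41, against at most 4.78 and 8.64 in the other old mice. Fn1, Hp, Ly6c2 and Ccr2 were named after their values were seen. Chil3 had 78.2 CPM in that library and at most 2.16 in the other old mice, and Plac8 18.7 against at most 1.63. Chil3 had a log2 fold change of 6.90 ± 1.19 (FDR = 8.72e-06) and 3.68 (FDR = 0.00116) without it, and that of Plac8 2.47 ± 0.54 (FDR = 0.000201) and 1.01 (FDR = 0.0281). At 8 months Chil3 had at most 0.189 CPM and Plac8 0.8195, so both passed the filter on low genes only through older mice.

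Of 10 neutrophil genes matched, 4 passed the filter on low genes and were tested. Of these 3 were higher, beside 21% of all genes, and 2 without replicate 2, beside 18.2%. S100a8 and S100a9 were scarce at 8 months, with means of 0.642 and 0.720 CPM. S100a8 rose by 3.35 ± 0.70 (FDR = 0.000121) and S100a9 by 3.24 ± 0.66 (FDR = 8.29e-05), and both passed without that library, at 2.35 (FDR = 0.00261) and 2.52 (FDR = 0.00104). The summed level of the neutrophil list had a median of 7.34 TPM at 8 months and 29.2 at 28 months, with 290 in replicate 2. High sums were also seen in 1 mouse at 24 months (318 TPM) and 1 at 26 months (247 TPM).

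Lymphocytes were near the limit of detection. None of the 13 T and NK cell genes passed the filter on low genes, none was at 0 in all mice of an age, and their sum stayed between 0.901 and 5.17 TPM. Of the B and plasma cell list 2 of 10 genes were tested and both were higher, Jchain (2.71 ± 0.57, FDR = 0.000129) and Xbp1, which muscle also makes (0.50 ± 0.11, FDR = 0.000244). Of 3 dendritic cell genes tested 0 passed in edgeR, DESeq2 or limma, with 0 at an unadjusted p below 0.05, and of 7 mast cell genes 1 was higher, Fcer1a (2.02 ± 0.33, FDR = 4.11e-06). Fcer1a had at most 0.306 CPM at 8 months, so it passed the filter on low genes only through older mice.

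Fibroblast genes went down, with 7 of 10 lower and 0 higher at 28 months, the same counts without replicate 2. Col3a1 fell by 2.28 ± 0.30 (FDR = 1.32e-07) and Col1a1 by 2.08 ± 0.33 (FDR = 3.12e-06), both on the log2 scale. Of 9 endothelial genes 1 was lower, Tek (-0.40 ± 0.11, FDR = 0.0016), which did not pass in limma (FDR up to 0.0386). Among 10 muscle fibre genes 3 were higher and 1 lower, Myh1 rising by 0.67 ± 0.21 (FDR = 0.00777; 0.64, FDR = 0.015, without replicate 2, where 2 were higher; it missed the threshold in 4 of 7 alternatives) and Pvalb falling by 0.74 ± 0.16 (FDR = 0.000158). Red cell genes, which show how much blood stayed in the sample, gave 1 higher of 5, Alas2 (1.23 ± 0.36, FDR = 0.00417, missed in 2 of 7 alternatives), and their sum in replicate 2 was the lowest of its age, 587 TPM against a median of 3180.

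**Figure D4:**
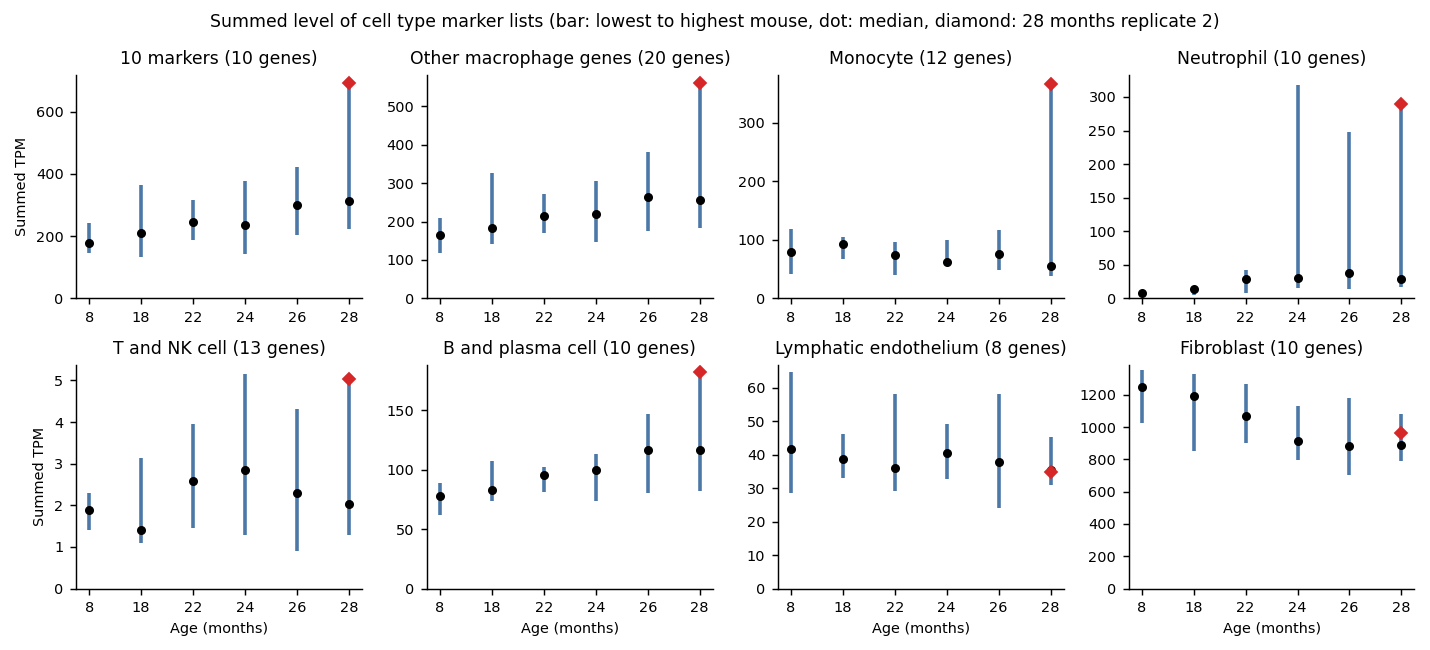
Summed TPM of 8 marker lists (y axis, from 0) by age (x axis, months), with a bar from the lowest to the highest mouse, a dot at the median and a diamond for replicate 2 at 28 months. The panel of other macrophage genes also holds genes of myeloid cells in general. That mouse is the highest of its age for the 10 markers (691 TPM, the next has 338) and for that panel. It is also highest for monocytes (366 TPM, the next has 83.4), neutrophils and both lymphocyte lists. Its sums lie within those of the others for lymphatic endothelium and fibroblasts. This does not hold for each fibroblast gene: Col1a1 (4.67 CPM) and Col3a1 (12.1 CPM) were lowest of their age in that mouse, while Ly6a (71.8 CPM) was not.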

How the data were processed

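Libraries were stranded and made from polyadenylated RNA of whole gastrocnemius. Per the labels and methods, the authors trimmed reads with cutadapt 1.9.1, assigned them with kallisto 0.43.1 to coding transcripts (GRCm38), and divided a read matching several transcripts evenly. The counts were deposited by the authors as whole numbers per gene. The TPM values were made by the authors from counts per transcript length, scaled to the library. All 50 mice were used (median total 16521368.5 counts). The closest libraries of any age differed by 6.37 times the counting variance, so none was counted as a duplicate.

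The 12586 genes that reached 1 CPM in 8 or more mice entered 1 model of the 6 ages in edgeR 4.0.16 (R 4.3.3). Libraries were scaled by TMM, contrasts were tested by quasi-likelihood, and FDR (Benjamini-Hochberg, all genes) had to be below 0.01. CPM are TMM-scaled. Alternatives were upper-quartile factors, DESeq2 1.42.0, limma 3.58.1 on log2(TPM + 1) and log2(TPM + 0.1), no filter, a fit of the ages compared alone, the replicate number as a block, FDR 0.05, and each mouse left out. In data simulated for 28 against 8 months (12586 genes, 200 changed 2-fold) edgeR called 91.5% of the changed genes and 1 unchanged gene. In the real comparison 39.6% of genes passed and 1 library stood apart, neither of which was simulated. These rates therefore need not hold for it. Correlations used Python 3.11.15. Precision is given by the spread between mice, and for scarce genes by their counts.

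The members and the gene lists, written from general knowledge, were chosen with earlier results of these data known. Of 194 list entries 189 were matched by symbol. The text names every member, the 2 genes of each list with the largest absolute log2 fold change among those past FDR 0.01 between 28 and 8 months, and the genes most like each member by Pearson r within ages (up to 3; 1 is not reported here). Others are named as chosen after their values were seen. Where a symbol in a list had more than 1 identifier, the one with the most counts was used.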

Additional observations from a re-analysis of the deposited data

Results flagged for a closer look

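In each of the 60 combinations of marker and age, the highest and the lowest mouse were compared with the rest by Dixon's rule, which chance alone meets in about 1 in 20 groups, or 3 of 60. It marked 3 combinations, in 2 mice. At 28 months replicate 2 stood apart for Spi1, with 12.08 CPM where the next mouse had 2.58, and for Lyz2, with 299.7 CPM where the next had 173.9. At 18 months replicate 6 stood apart for Cd163, with 58.6 CPM where the next had 34.2.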

How the results depend on the processing

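Counts of markers past FDR 0.01 changed by more than 1.5 times under 3 of the alternatives. For 28 against 8 months it was 4 in place of 7 in a fit of those ages alone, for 26 against 8 months 2 in place of 4 with no filter on low genes, and for 28 against 22 months 4 in place of 2 at FDR 0.05. The cause was not tested. Leaving out each mouse in turn gave 3 to 7 for 28 against 8 months (3 without 28 months replicate 2), 2 to 5 for 26 against 8 months, 2 to 4 for 28 against 22 months (4 without 28 months replicate 3), 4 to 4 across the ages and 0 to 0 for the other comparisons. For 26 against 8 months the count fell by more than 1.5 times without replicate 2, 5 or 6 of 8 months or replicate 1, 3 or 6 of 26 months. Spi1 lost its call in 5 of 17 such fits and in 5 of 7 other alternatives, with FDR up to 0.215.

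With the replicate number as a block, 6 markers passed for 28 against 8 months (Spi1 did not) and 3 for 26 against 8 months (Lyve1 did not). Nothing in the labels says that a number pairs mice. The correlation of deviations was over 0.1 in 3 of 8 same-numbered pairs of 28 and 8 months (-0.165 to 0.188). Between mice of different ages its median was 0.0623 for the same number and -0.00679 for different numbers. Whether mice of the same number share more than the number was not tested. Over all genes, 44.9% of calls for 28 against 8 months were higher with upper-quartile factors, against 52.9% with TMM; for 28 against 22 months it was 43.4% against 58.3%. Counts of all genes that moved by over 1.5 times across the alternatives were 69 to 190 for 24 against 8 months (77 as reported), 4 to 34 for 22 against 8 (5), 4 to 10 for 18 against 8 (9), 0 to 14 for 26 against 24 (0), 0 to 1 for 28 against 26 (0) and 1883 to 3721 for 28 against 22 (3485). Calls of pairs within ages numbered 39 to 41 of 45 in the alternatives. Depth limits Trem2 most, at 4 to 33 counts.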
